A study of Mus musculus with 6 samples.

Results

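The BCL2 family decides whether a cell under stress releases cytochrome c from its mitochondria and dies. Guardians such as BCL2, BCL-xL and MCL1 hold the pore-forming effectors BAX and BAK in check. BH3-only proteins carry the stress signal, either by occupying the guardians or by engaging the effectors directly. Epithelial cells that lose contact with the matrix can die by this route, a death called anoikis, and tumour cells travelling in blood have lost that contact. Members of both kinds are regulated after transcription as well, so an mRNA level is only one part of their state.

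The 10 members described here are the guardians Bcl2, Bcl2l1 and Mcl1, the effectors Bax and Bak1, and the BH3-only genes Bbc3, Pmaip1, Bcl2l11, Bid and Bad, taken by mouse symbol from the 56691 genes of the deposited table. All 10 had a row. The group called CTM held 3 RNA sequencing libraries of micro-emboli, tumour cell clusters caught from the blood of mice whose breast cancer had spread to the lung. The group called 4T1 held 3 libraries of the mouse mammary carcinoma line 4T1, with a culture of low adherence named in the titles and ordinary medium with serum in the protocol. The labels give no strain, age or number of mice, and do not say whether libraries of a group came from separate animals or cultures, so a p-value here reflects variation among libraries only, and that variation may be technical. The groups differ at once in growth in the animal or in a dish, in passage through blood and in capture, and these cannot be told apart. With low adherence named in the titles, the cultured cells may have lacked attachment as well. The groups are therefore not an established contrast of attached against detached cells.

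The libraries held 69178212 to 71595766 estimated counts. Replicates 2 and 3 of each group were much closer to each other than to replicate 1, with a mean chi-square per gene, on counts divided by 4, of 4.52 in CTM and 3.32 in 4T1, against 26.3 to 75.3 for the other pairs. Transcripts of the keratins Krt8 and Krt18 were abundant in both groups. Krt18 was at 960 to 1091 CPM in CTM and 839 to 950 CPM in 4T1, and Krt8 at 533 to 571 and 733 to 778 CPM. Epcam, the surface marker often used to catch such cells, stayed below 1 CPM in every library. Levels below are normalised CPM, a gene's share of its scaled library. Log2 fold changes are CTM minus 4T1 with their standard error, from edgeR's quasi-likelihood test on all 6 libraries, and adjusted p-values are over all 16414 genes tested.

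Transcripts of the family did not move as a block. Of the 9 members that could be tested, 3 were higher in CTM (Mcl1, Bbc3 and Bcl2l11), 3 were lower (Bcl2, Bcl2l1 and Bid) and 3 did not pass (Bax, Bak1 and Bad). Over all genes tested, 14.2% were called higher and 13.7% lower (2323 and 2252 genes, or 1900 and 2731 with library totals in place of TMM). Both directions occurred among the guardians and among the BH3-only genes, while neither effector passed. Pmaip1 was too low to test. The median log2 fold change was -0.87 for the 3 guardians and -0.11 for the 6 tested pro-apoptotic members, beside -0.03 for all genes tested.

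**Figure D1:**
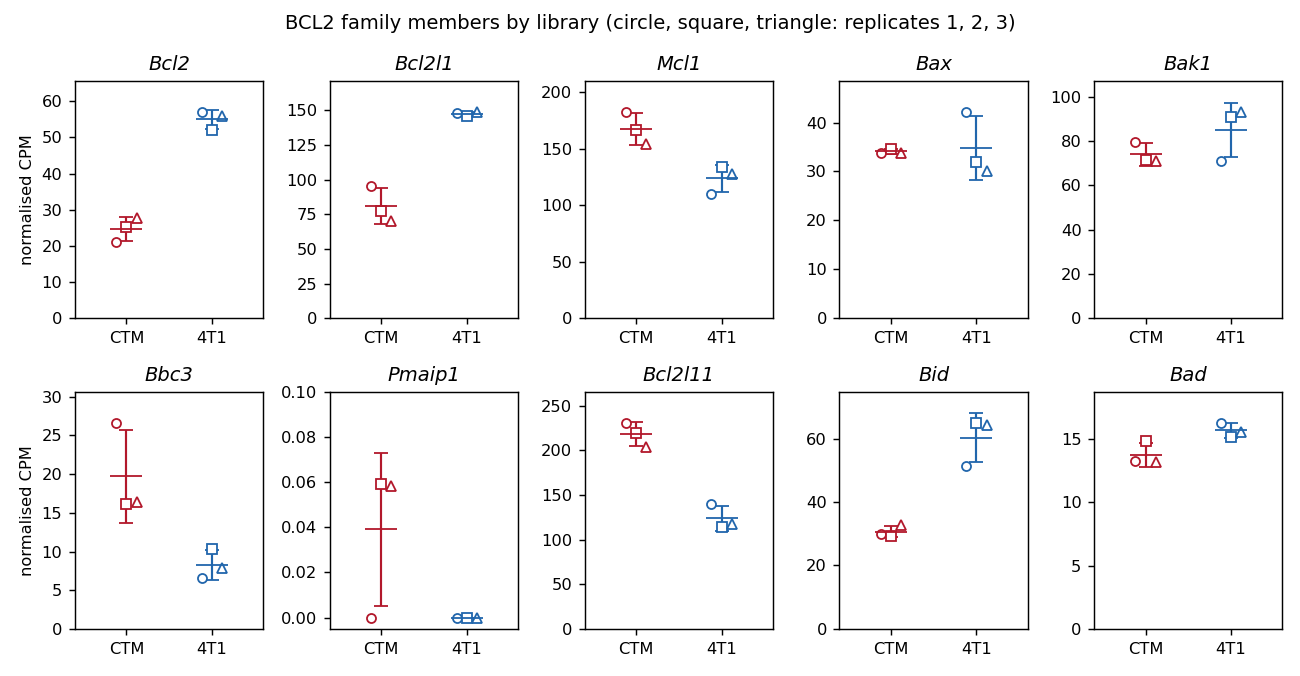
Normalised CPM (vertical axes, linear, each with its own scale) of the 10 members in the CTM and 4T1 libraries. Circles, squares and triangles are replicates 1, 2 and 3, and bars show the mean and SD of 3 libraries. The groups stand apart for 7 members, among them Bcl2 and Bcl2l1, low in CTM, and Bcl2l11, high in CTM. They also stand apart for 48.3% of all genes tested, and Bad, among the 7, was not called.

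Among the guardians, Bcl2 and Bcl2l1 fell and Mcl1 rose. Bcl2, the founding member of the family, was at 21.2, 25.2 and 27.8 CPM in the CTM libraries, against 57.1, 52.0 and 56.0 CPM in the 4T1 libraries. Every CTM library lay below every 4T1 library. The means were 24.7 ± 3.34 CPM in CTM and 55.0 ± 2.65 CPM in 4T1 (SD, n = 3 each), a log2 fold change of -1.15 ± 0.13 (SE) with an edgeR adjusted p of 0.00137. A small part of its exons, 6.09% of their bases, is shared with a gene on the other strand.

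Bcl2l1, which encodes BCL-xL and, by another splice, a short form of opposite effect, was at 95.1, 77.3 and 70.3 CPM in CTM, against 148, 146 and 149 CPM in 4T1. The culture values were nearly level, and CTM replicate 1 was the nearest to them and still well below. Its log2 fold change was -0.87 ± 0.12 (SE), an edgeR adjusted p of 0.00328. The deposited table counts whole genes, so the long and short forms of Bcl2l1, and likewise the forms of Mcl1 and Bcl2l11, cannot be separated.

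Mcl1 encodes a guardian whose protein turns over quickly and which restrains BAK and BIM. It was at 183, 167 and 154 CPM in CTM, against 110, 134 and 128 CPM in 4T1. The groups did not overlap; CTM replicate 3 and 4T1 replicate 2 came closest. For Mcl1 the log2 fold change was 0.44 ± 0.11 (SE) with an edgeR adjusted p of 0.025. This call was the least secure of the 6: it was lost when CTM replicate 1 (edgeR adjusted p = 0.053), CTM replicate 2 (0.0899), 4T1 replicate 2 (0.0521) or 4T1 replicate 3 (0.0716) was left out, with log2 fold changes of 0.39 to 0.50.

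The effectors BAX and BAK form the pore in the outer mitochondrial membrane once they are activated. Bax was at 33.8, 34.6 and 33.8 CPM in CTM, against 42.2, 32.0 and 30.0 CPM in 4T1. The CTM values fell inside the range of the culture, where replicate 1 was the high one. Its log2 fold change was -0.03, with a 95% interval of -0.37 to 0.31 (edgeR adjusted p = 0.911). Bak1 was at 79.7, 71.2 and 70.8 CPM in CTM, against 70.9, 90.8 and 93.0 CPM in 4T1. Here 4T1 replicate 1 was the low library, and the groups overlapped through it. The log2 fold change of Bak1 was -0.20, with a 95% interval of -0.50 to 0.10 (edgeR adjusted p = 0.278). Without 4T1 replicate 1 it was -0.32 and passed, at an edgeR adjusted p of 0.0169. That fit kept only 4T1 replicates 2 and 3 of the culture, the close pair (mean chi-square 3.32). It also called more of all genes, 3323 higher and 3326 lower, instead of 2323 and 2252. The counting is not stated to use strand, and 25.5% of the exon bases of Bak1 lie in a gene on the other strand, while 12.2% of those of Bax lie in another gene on its own strand, so reads there are uncertain.

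Of the BH3-only genes, Bcl2l11 and Bbc3 were higher in CTM. Bcl2l11 encodes BIM, which binds all the guardians, can activate BAX and BAK and is a main trigger of anoikis in mammary epithelium. It was at 231, 220 and 204 CPM in CTM, against 140, 115 and 117 CPM in 4T1. The lowest CTM library was well above the highest culture library. Its log2 fold change was 0.82 ± 0.11 (SE), an edgeR adjusted p of 0.00251.

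Bbc3 encodes PUMA, a BH3-only protein induced by p53 and by other stress factors. It was at 26.7, 16.2 and 16.4 CPM in CTM, against 6.60, 10.4 and 7.92 CPM in 4T1. CTM replicate 1 was far above its fellows, while all 3 CTM libraries were above the culture. The log2 fold change was 1.25 ± 0.26 (SE) with an edgeR adjusted p of 0.0128, and the gene had the widest standard error of the 9 tested members. Without CTM replicate 1 the log2 fold change was 0.99 and passed, at an edgeR adjusted p of 0.0273.

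The DNA upstream of the members' annotated starts was searched for the core motif of FOXO transcription factors. Shown are the windows that held it, of Bbc3 and Bcl2l11. Whether FOXO factors had a part in the levels of these genes was not tested. The windows are the 250 bases before a start, from RefSeq on GRCm38.p6. The capitals mark the core FOXO motif GTAAACA, or TGTTTAC where it reads on the other strand.
Bbc3 at chr7:16310011-16310260, plus strand: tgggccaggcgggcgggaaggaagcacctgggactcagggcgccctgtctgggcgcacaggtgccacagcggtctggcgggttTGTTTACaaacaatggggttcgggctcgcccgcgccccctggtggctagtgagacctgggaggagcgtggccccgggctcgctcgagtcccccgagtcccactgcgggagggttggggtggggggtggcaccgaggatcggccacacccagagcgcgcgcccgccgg
Bcl2l11 at chr2:128125788-128126037, plus strand: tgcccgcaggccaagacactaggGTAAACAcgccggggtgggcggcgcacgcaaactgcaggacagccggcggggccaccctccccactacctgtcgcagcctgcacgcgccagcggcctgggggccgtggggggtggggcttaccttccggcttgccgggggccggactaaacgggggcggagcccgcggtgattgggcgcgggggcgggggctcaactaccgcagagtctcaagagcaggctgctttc
The motif begins 167 bases before this Bbc3 start and 227 bases before this Bcl2l11 start. Bbc3 has 3 annotated windows and Bcl2l11 has 2, and the others of both genes do not hold these letters. Of 15 windows of 9 members, these 2 held the motif on either strand, and 3.17% of 32851 windows of the same length across all genes held it. The cores of the hypoxia response element, searched on both strands because the series title names hypoxia, were in 2 of the 15 windows for ACGTG and in 7 for GCGTG, beside 16.6% and 28.2% of all windows. Those with ACGTG were the only window of Bax and a window of Bbc3. Each had 2 matches over both strands, which the palindrome CACGTG would also give. These motifs were chosen after the sequences were seen, so the shares are not a test of enrichment. Windows of a gene can also overlap, as some of Bbc3 do. A match is letters in a window and not a bound site.

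Among the other BH3-only genes Bid fell and Bad did not pass. Bid links death receptors to the mitochondria once caspase-8 cuts its protein. It was at 29.9, 29.4 and 32.6 CPM in CTM, against 51.3, 65.0 and 64.4 CPM in 4T1. The CTM libraries were nearly level and all lay below the culture, where replicate 1 was the lowest. For Bid the log2 fold change was -0.98 ± 0.12 (SE), an edgeR adjusted p of 0.00222. Its exons share 17.7% of their bases with Bcl2l13 on the other strand, a gene whose own log2 fold change was 0.00.

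Bad, a sensitizer that binds BCL2 and BCL-xL unless survival kinases phosphorylate it, was at 13.3, 14.9 and 13.2 CPM in CTM, against 16.3, 15.2 and 15.6 CPM in 4T1. All CTM values were below all culture values, by less than the test could call, and 20.5% of its exon bases lie in a gene on the other strand. The log2 fold change was -0.19, with a 95% interval of -0.47 to 0.10 (edgeR adjusted p = 0.286). Counting Bad, 7 of the 9 tested members had groups without overlap, 3 with CTM above and 4 with CTM below, where 48.3% of all genes tested did, 24.8% with CTM above and 23.5% with CTM below.

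Pmaip1 encodes NOXA, a BH3-only protein that binds MCL1. The table listed 0, 4 and 4 counts in the CTM libraries and 0 counts in each 4T1 library. A count of 0 allows up to 0.0415 to 0.044 CPM in those libraries, for counting error only, so Pmaip1 RNA was near or under detection in both groups.

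Per length of annotated exons, an approximate scale on which different genes can be set side by side, Mcl1 was at the top in both groups, at 49.1 ± 4.18 CPM per kb in CTM and 36.2 ± 3.57 CPM per kb in 4T1 (SD, n = 3 each). In CTM the next were Bak1 at 30.7, Bcl2l11 at 27.2, Bax at 21.6, Bcl2l1 at 17.6, Bbc3 at 9.29, Bid at 8.63, Bad at 5.38 and Bcl2 at 2.70 CPM per kb. Only the neighbours Bbc3 and Bid overlapped between their CTM libraries. In 4T1 the order after Mcl1 was Bak1 at 35.3, Bcl2l1 at 32.1, Bax at 22.0, Bid at 17.0, Bcl2l11 at 15.4, Bad at 6.13, Bcl2 at 6.01 and Bbc3 at 3.91 CPM per kb. The culture values of Mcl1 and Bak1, of Bak1 and Bcl2l1, of Bid and Bcl2l11 and of Bad and Bcl2 overlapped. On this scale Bcl2l1 was below Bcl2l11 and Bax in CTM but above both in the culture, and Bcl2 was the lowest of the 3 guardians in both groups.

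**Figure D2:**
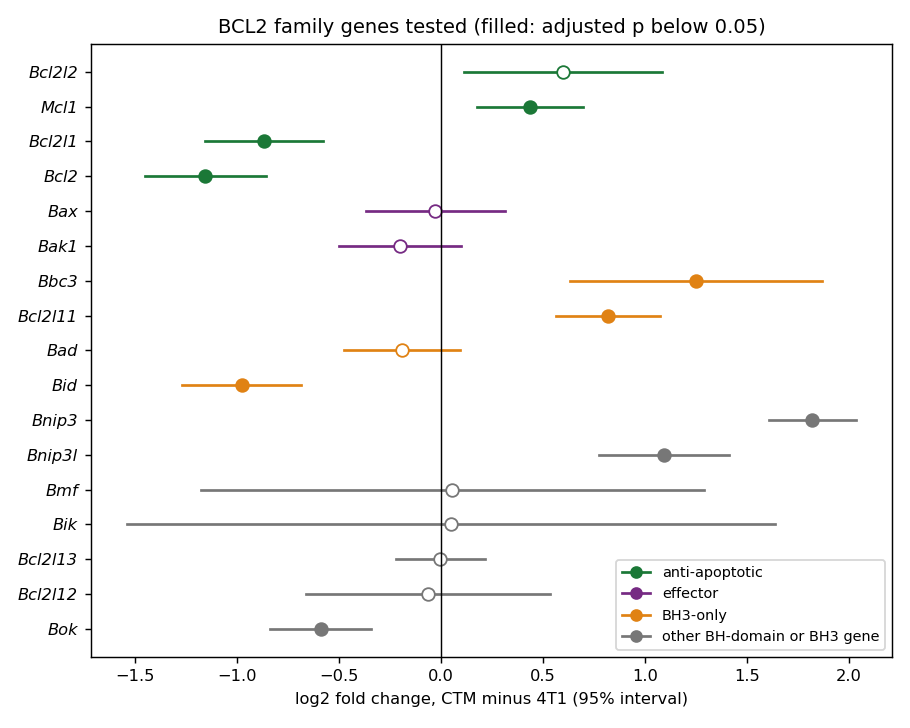
Log2 fold changes, CTM minus 4T1 (horizontal axis), of the 17 BCL2 family genes tested, with 95% intervals that are not adjusted for the number of genes. Filled points have an edgeR adjusted p below 0.05 and colours give the role. Guardians lie on both sides of 0, from Bcl2l2 at 0.60 to Bcl2 at -1.15, and so do the BH3-only genes, from Bbc3 at 1.25 to Bid at -0.98.

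Setting pro- against anti-apoptotic members within a library removes the scaling of the library. For 14 pairs whose proteins are known to bind, the ratio of the pro- to the anti-apoptotic transcript was computed in each library, and Pmaip1 against Mcl1 dropped out because of its zeros. In 9 of the 13 remaining pairs all CTM libraries had the higher ratio, in 2 the lower and in 2 the groups overlapped. The ratio depended on which guardian was the partner. Over Bcl2 all 3 pairs were higher and over Bcl2l1 5 of 6, with Bax, Bak1, Bad, Bcl2l11 and Bbc3 among them. Of 15513 other tested genes without a count of 0, 77.5% were higher in CTM over Bcl2 (0.999% lower) and 63.4% over Bcl2l1 (1.91% lower), so these counts mostly restate the fall of both guardians. Over Mcl1 the ratio was lower for Bak1 and Bid, as for 48.8% of the genes, and higher for Bbc3, as for 7.46%.

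The ratio of Bbc3 to Bcl2l1 was 4.32-fold higher in CTM, with log2 values of 2.34, 1.92 and 2.07 in the CTM libraries around a culture mean set to 0. That of Bcl2l11 to Bcl2 was 3.96-fold higher and that of Bcl2l11 to Bcl2l1 3.25-fold higher. For the effector Bax the ratio to Bcl2 was 2.22-fold and the ratio to Bcl2l1 1.82-fold higher, while Bax itself did not pass. With Mcl1 as the partner, Bcl2l11 had log2 ratios of 0.34, 0.40 and 0.41 in CTM, against 0.34, -0.22 and -0.12 in 4T1, so that 4T1 replicate 1 lay among the CTM libraries. The ratio of Bid to Mcl1 fell by 1.41 ± 0.19 on the log2 scale and that of Bak1 to Mcl1 by 0.63 ± 0.06 (SD over the 3 CTM libraries). An exact two-sided permutation test of 3 against 3 libraries cannot go below p = 0.1, which the 11 pairs without overlap reached (0.118 adjusted over the 13 pairs), and pairs that share a gene are not independent.

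**Figure D3:**
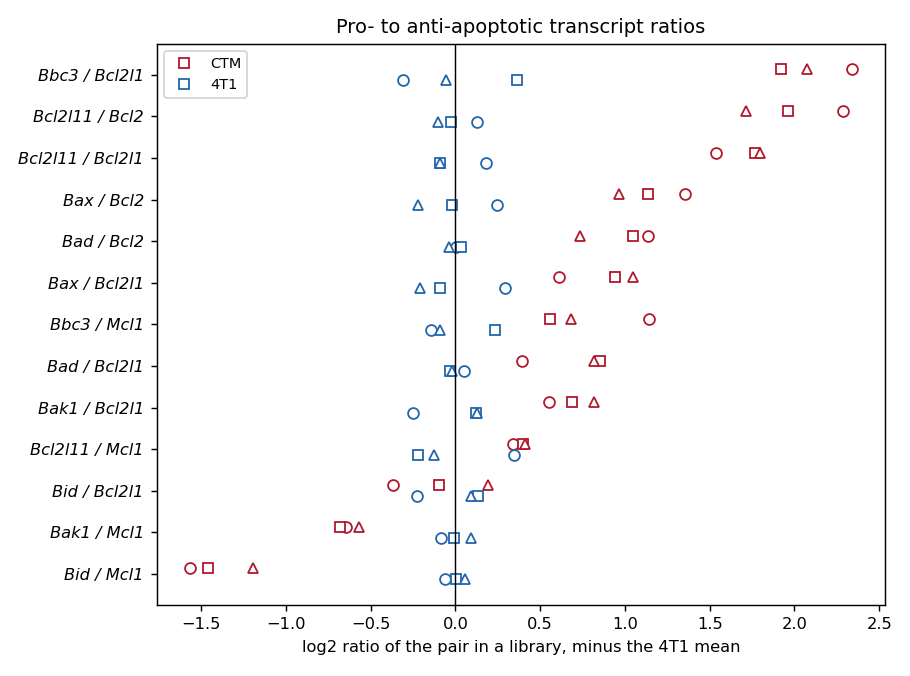
Log2 ratio of a pro- to an anti-apoptotic member in each library, minus the mean of the 4T1 libraries (horizontal axis), for 13 pairs. CTM libraries are drawn above the 4T1 libraries of the same pair, and circles, squares and triangles are replicates 1, 2 and 3. Ratios over Bcl2 or Bcl2l1 lie to the right in CTM except for Bid over Bcl2l1, whereas Bid and Bak1 over Mcl1 lie to the left.

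Relatives outside the 10 members were examined by the same fit. Among the other guardians, Bcl2l2, which encodes BCL-W, was at 33.3, 36.5 and 33.8 CPM in CTM, against 15.7, 26.0 and 26.8 CPM in 4T1. The groups did not overlap, but the low 4T1 replicate 1 widened the spread and the edgeR adjusted p was 0.0688. Without that library the log2 fold change was 0.39 instead of 0.60, with an edgeR adjusted p of 0.0124. The culture then rests on the close pair of 4T1 replicates 2 and 3, and more of all genes were called (3323 higher and 3326 lower). Bcl2a1a, Bcl2a1b and Bcl2a1d, near-identical copies that encode A1, a guardian of leukocytes, stayed below 1 CPM and were not tested. Their reads were found almost wholly in CTM replicates 2 and 3, at 0.296 to 0.800 CPM for Bcl2a1d. The 6 B cell markers summed to 5.65 and 6.78 CPM in the same libraries, against 0.0734 CPM in CTM replicate 1 and 0.415 to 0.526 CPM in 4T1, and their part in the Bcl2a1 reads was not tested. Bcl2l10 was listed at 0 in all 6 libraries.

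Of the other pro-apoptotic or BH-domain relatives, Bnip3 and Bnip3l rose, Bok fell and 4 of the 7 tested did not pass. Across all genes tested, 14.2% were called higher and 13.7% lower. Bnip3, a mitochondrial protein of the hypoxia response that also directs mitophagy, was at 480, 501 and 486 CPM in CTM, against 151, 135 and 129 CPM in 4T1 (edgeR adjusted p = 0.000168). Bnip3l rose 2.14-fold, at 700, 717 and 712 CPM in CTM, against 404, 298 and 294 CPM in 4T1 (edgeR adjusted p = 0.00206). Bok, a BAX-like protein, fell by 0.59 ± 0.11 (SE) on the log2 scale, at 50.7, 44.2 and 43.0 CPM in CTM, against 73.3, 69.3 and 64.6 CPM in 4T1 (edgeR adjusted p = 0.00723).

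Bmf, a BH3-only protein tied to the cytoskeleton and known as a sensor of lost attachment, had one culture library far from the other two. It was at 27.3, 22.3 and 19.1 CPM in CTM, against 43.2, 12.2 and 10.6 CPM in 4T1. In 4T1 replicate 1 it exceeded every CTM library, and in the other culture libraries it was below them. The log2 fold change was 0.06 (edgeR adjusted p = 0.948), and without 4T1 replicate 1 it was 1.00, at an edgeR adjusted p of 0.00524. That p again rests on the close pair of culture libraries, in a fit that called more of all genes. Bik, Bcl2l12 and Bcl2l13 did not pass, with log2 fold changes of 0.05, -0.06 and 0.00, and Hrk, Bcl2l14 and Bcl2l15 were too low to test.

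Over the 7 lists of related genes, 13 of the 84 tested were higher and 17 lower, beside 27.9% of all genes called in either direction. The list for steps after the pore also held the outer membrane channel genes Vdac1, Vdac2 and Vdac3. Of its 16 genes 2 rose, 4 fell and 10 did not pass, with a median log2 fold change of -0.17. Vdac1, the main channel of the outer membrane, rose 1.80-fold (edgeR adjusted p = 0.00342). Among the genes that fell were Parp1, a DNA repair enzyme cut by caspases, by 1.67-fold, Htra2, a protease released with cytochrome c, by 1.96-fold, and Aifm1, the apoptosis-inducing factor, by 1.73-fold. Casp6, which encodes a caspase, was the other gene that rose. The components of the apoptosome, Cycs, Apaf1 and Casp9, did not pass, with log2 fold changes of -0.17, -0.14 and 0.18.

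Of 5 tested genes of the inhibitor of apoptosis proteins, Birc2 rose and Birc5 and Xiap fell, beside 14.2% and 13.7% of all genes tested. Birc2, which encodes the ubiquitin ligase cIAP1, rose 1.62-fold, at 48.8, 43.1 and 41.9 CPM in CTM, against 26.7, 27.5 and 28.2 CPM in 4T1 (edgeR adjusted p = 0.00362). Birc5, which encodes survivin and is made mainly in dividing cells, fell 2.13-fold and Xiap, the direct caspase inhibitor, 1.52-fold (edgeR adjusted p = 0.00548 and 0.00916). The median log2 fold change of the list was -0.04.

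In the death receptor list 2 of 11 tested genes rose, 2 fell and 7 missed the threshold, beside 14.2% and 13.7% over all genes. The list's median log2 fold change was 0.06. Fas, the receptor of FAS ligand, was at 29.0, 30.4 and 29.8 CPM in CTM, against 11.5, 12.2 and 12.5 CPM in 4T1 (edgeR adjusted p = 0.000689). The libraries of each group were nearly level. Its adaptor Fadd fell 1.80-fold and Tradd, the adaptor of the TNF receptor, 1.35-fold (edgeR adjusted p = 0.0225 and 0.0309), both near the threshold. Fadd missed it without CTM replicate 1 or 2 or 4T1 replicate 2 or 3 (edgeR adjusted p = 0.0548, 0.0901, 0.0749 and 0.0702), at log2 fold changes of -0.69 to -0.82 instead of -0.85. Tradd missed it when any library but 4T1 replicate 1 was left out (0.0523 to 0.129), at -0.39 to -0.48 instead of -0.43. Tnfsf10, which encodes the ligand TRAIL, rose at a very low level, at 0.514, 1.11 and 0.859 CPM in CTM, against 0.139, 0.180 and 0.111 CPM in 4T1 (edgeR adjusted p = 0.00962, and 0.0519 without CTM replicate 2). Casp8 and its brake Cflar did not pass, with log2 fold changes of -0.10 and 0.06. Without 4T1 replicate 1 the log2 fold change of Casp8 was -0.28, with an edgeR adjusted p of 0.0143. This fit, too, kept only the close pair of culture libraries and called more of all genes.

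Among 22 tested regulators of the family 5 rose, 2 fell and 15 missed the threshold, beside 14.2% higher and 13.7% lower over all genes. Their median log2 fold change was 0.04. Ddit3, which encodes CHOP, a stress factor known to induce BIM and to repress Bcl2, rose 18.2-fold, at 172, 167 and 166 CPM in CTM, against 6.84, 10.6 and 10.2 CPM in 4T1 (edgeR adjusted p = 0.000128). Foxo3, a known activator of the BIM and PUMA genes, rose 1.95-fold, at 189, 193 and 205 CPM in CTM, against 123, 90.7 and 88.0 CPM in 4T1 (edgeR adjusted p = 0.00365). The p53 targets Mdm2 and Cdkn1a rose 2.01-fold and 5.33-fold, while Trp53 itself was at 28.0, 35.1 and 35.5 CPM in CTM, against 17.9, 33.1 and 32.6 CPM in 4T1, and did not pass (edgeR adjusted p = 0.508). Trib3, a pseudokinase downstream of CHOP, rose 2.83-fold, and the genes that fell were E2f1, a cell cycle transcription factor, and Ywhaz, a 14-3-3 protein that can hold phosphorylated BAD. The Trib3 call was lost without CTM replicate 2 or 3 (edgeR adjusted p = 0.0801 and 0.0671), and that of Ywhaz when any library but 4T1 replicate 1 was left out (0.0701 to 0.105). The log2 fold changes were then 1.41 and 1.46 for Trib3 and -0.32 to -0.37 for Ywhaz, instead of -0.37. Whether any of these genes had a part in the levels of the members was not tested.

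Of 22 tested genes of matrix contact and anoikis, 1 rose, 6 fell and 15 did not pass. The shares over all genes tested were 14.2% higher and 13.7% lower. The median log2 fold change of the list was -0.35, and its genes were not split by their effect on survival. Akt1, the survival kinase whose product inactivates FOXO3 and BAD, was at 273, 280 and 289 CPM in CTM, against 489, 451 and 483 CPM in 4T1 (edgeR adjusted p = 0.00121). Ilk, a kinase-like adaptor of integrins, fell 2.06-fold and the receptor gene Erbb2 1.84-fold (edgeR adjusted p = 0.00152 and 0.00431). Tle5, a transcriptional corepressor listed under its older symbol, fell 1.41-fold (edgeR adjusted p = 0.0166, but 0.0747 without CTM replicate 2 and 0.0904 without CTM replicate 3). The other 2 that fell were Ptk2, which encodes the focal adhesion kinase, and Itgb1, the common beta integrin. Pxn, a focal adhesion scaffold, was the gene that rose. These 3 calls were near the threshold: Ptk2 missed it without any one CTM library (edgeR adjusted p = 0.109 to 0.123), and Itgb1 and Pxn when any library but 4T1 replicate 1 was left out (0.0625 to 0.1 and 0.064 to 0.126). The log2 fold changes were -0.70 to -0.72, -0.25 to -0.32 and 0.24 to 0.35 in those fits, instead of -0.72, -0.29 and 0.29. With library totals in place of TMM, Pxn missed as well, at 0.108. Src, a kinase gene of integrin signalling, did not pass, at a log2 fold change of 0.20.

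**Figure D4:**
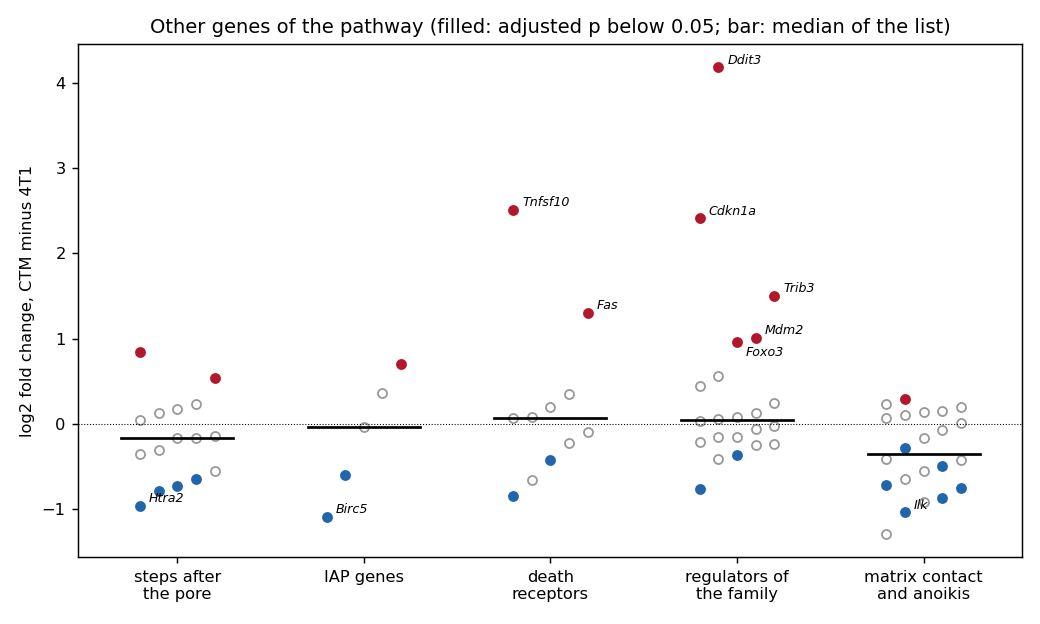
Log2 fold changes, CTM minus 4T1 (vertical axis), of the tested genes in 5 lists around the BCL2 family. Filled red and blue points were called higher and lower at an edgeR adjusted p below 0.05, open points did not pass, black bars are list medians, and called genes beyond 0.9 in size are named. Ddit3 stands highest at 4.19, and the matrix contact list, not split by effect on survival, has the lowest median, -0.35.

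Markers of other cells moved in part with the groups, where 14.2% of all genes tested were called higher and 13.7% lower. Of 5 tested platelet markers 3 were higher, and 1 of them, Selp, made up nearly all of the list's sum of 144 to 160 CPM in CTM and 81.3 to 106 CPM in 4T1. Selp alone was at 152, 132 and 142 CPM in CTM, against 100, 78.7 and 77.8 CPM in 4T1. The others that rose were Itga2b and Gp1ba (edgeR adjusted p = 0.00245 and 0.0127). Itga2b was at 6.63, 9.16 and 8.67 CPM in CTM, against 2.86, 3.18 and 2.77 CPM in 4T1. Gp1ba was at 0.704, 0.709 and 0.524 CPM in CTM, against 0.0556, 0.166 and 0.083 CPM in 4T1. The platelet chemokines Pf4 and Ppbp stayed below 2 CPM and did not pass, with log2 fold changes of -0.90 and -0.15, and Gp6 and Tubb1 were at 0 in all libraries. Of 6 tested monocyte markers Cd68 and Mrc1 were higher, and the list's median log2 fold change was -0.15. Its sum of 167 to 368 CPM in CTM and 47.9 to 95.3 CPM in 4T1 came mainly from Cd68, at 351, 155 and 147 CPM in CTM, against 23.5, 26.4 and 28.4 CPM in 4T1. Csf1r, Ly6c2 and Cd14 lay lower in every CTM library than in any 4T1 library without passing, with log2 fold changes of -5.41, -3.41 and -0.54. The size of the first 2 came from 4T1 replicate 1. Csf1r was at 32.6, 0.692 and 0.595 CPM and Ly6c2 at 6.06, 0.747 and 0.747 CPM in the 4T1 libraries. Of 6 tested pan-leukocyte markers Arhgdib, Ptpn6 and Lcp1 were lower, and with their levels the sum was 103 to 133 CPM in CTM and 161 to 203 CPM in 4T1. Ptprc, the defining leukocyte antigen, was at 0.161, 1.08 and 1.34 CPM in CTM, against 0, 0.221 and 0.277 CPM in 4T1. Ptprc, Cd53 and Coro1a had log2 fold changes of 2.36, 2.07 and 0.59 and did not pass, and Laptm5 was too low to test, at 0.117, 0.665 and 0.844 CPM in CTM, against 0.0556, 0 and 0.125 CPM in 4T1. CTM replicates 2 and 3 were the highest libraries for these 4 genes. None of the 3 neutrophil, 2 B cell, 1 T and NK cell, 5 erythroid and 6 hepatocyte markers tested passed. Hepatocyte markers summed to 193 to 586 CPM in CTM and 640 to 689 CPM in 4T1. For all 6, CTM lay below 4T1 without overlap, as for 23.5% of all genes tested. Of 4 tested endothelial markers 2 were lower, and of 8 epithelial markers 1 was higher and 3 lower. Krt19 rose 2.86-fold (edgeR adjusted p = 0.00906). Krt7, Krt8 and Cdh1 fell 3.17-, 1.36- and 3.99-fold (edgeR adjusted p = 0.00106, 0.00548 and 0.0317). Cdh1 was at 113, 27.8 and 31.0 CPM in the 4T1 libraries. The part of such cells in the members' levels was not tested, and in bulk RNA fewer cells of a type and less RNA per cell cannot be told apart.

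With the mean of replicates 2 and 3 of each group taken as 1 sample, which leaves 2 samples per group, Bcl2 kept its call (edgeR adjusted p = 0.0453). The other 5 called members had adjusted p-values from 0.0617 for Bid to 0.158 for Mcl1 in that fit, with the directions as before.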

How the data were processed

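The labels' protocols name a SMART-Seq ultra low input kit for RNA and library preparation. HISAT2 2.0.4, Bowtie 0.12.2, edgeR and the build mm8 appear in the submitters' processing notes without a stated role. Counting software and annotation were not given in the sources used here. Estimated counts per Ensembl gene were deposited by the authors, as whole numbers not scaled to a fixed total. Low values pile up at multiples of 4 (964 genes at 4 in CTM replicate 1, against 398 at 3 and 245 at 5), so counting error may exceed what the totals imply.

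Symbols were found for 52073 of 56691 identifiers. Where 2 identifiers shared a symbol, the one with more counts was used. Low genes were removed with filterByExpr, which left 16414, libraries were scaled by TMM, and edgeR 4.0.16 in R 4.3.3 was fitted without a block (quasi-likelihood F test, two-sided, Benjamini-Hochberg adjustment, threshold 0.05). The fit was also run on simulated counts. The simulated libraries were independent, so that run does not cover the closeness of replicates 2 and 3. Standard errors are the size of the log2 fold change divided by the root of F. Lengths are union exons of GENCODE M21, whose build is not the one named by the submitters. Coordinates are given only for promoter windows, from RefSeq on GRCm38.p6, and not for the counted genes. The members and lists were chosen with earlier results of these data known. All members and relatives are named, with up to 4 genes of smallest p per other list. Other genes, named where a count was small or as known components of a step, were picked after their values were seen. The alternatives used limma 3.58.1 (voom with quality weights), DESeq2 1.42.0, its size factors in edgeR, library totals, no filter on low counts, at least 5 CPM in 3 libraries, a replicate block, and division of the counts by 4. Others dropped each library in turn, dropped both libraries numbered 1, or averaged replicates 2 and 3. One gene of the related lists is counted but not reported here.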

Additional observations from a re-analysis of the deposited data

How the results depend on the processing

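Of the members, no called one changed direction under any of the 16 alternatives. Over all genes, 2323 were higher and 2252 lower. With limma voom these counts were 4514 and 4628, and the related genes called were 24 higher and 29 lower, instead of 13 and 17. Without both libraries numbered 1 the counts were 4239 and 4340 over all genes, and 29 and 29 related genes. With replicates 2 and 3 averaged they were 276 and 200 over all genes, 5 and 1 related genes, and 0 members higher and 1 lower by edgeR. The cause of these changes was not tested. Samples per group fell to 2 in the averaged fit, as they did without both libraries numbered 1. At an unadjusted edgeR p below 0.05 the averaged fit had 3 members higher and 3 lower, and DESeq2 on all 6 libraries called 3 and 3. When 1 library was dropped, 1334 to 3323 of all genes were higher and 1208 to 3326 lower, with 2 to 3 members higher and 3 to 4 lower, and 10 to 19 related genes higher and 10 to 23 lower. The lowest counts over all genes came without CTM replicate 2, the highest without 4T1 replicate 1. The log2 fold change of Bax, not called in any fit, differed in sign in 3 of its 16 alternatives. With library totals alone the median of all genes was -0.11 instead of -0.03, and 1900 genes were higher and 2731 lower.

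Same-numbered libraries deviated from their group means with correlations of 0.12, 0.07 and 0.04 across genes, so the numbers were not taken to pair them. With the replicate block, 2 members were higher and 3 lower, Mcl1 missing at an edgeR adjusted p of 0.054, and 2232 genes were higher and 2065 lower. The ratio counts of 9 higher and 2 lower pairs stayed at 9 to 10 and 2 in the alternatives run for them. The 9 tested members each had at least 475 counts in every library, while Pmaip1 and the Bcl2a1 copies were too low to test. With the counts divided by 4, 3 members were higher and 3 lower, as before. Whether depth or the low RNA input limited the calls was not tested.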
